A study of Mus musculus with 2 samples.

Results

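The nuclear genes of the mitochondrial respiratory chain and of ATP synthase were followed in whole lungs that carried Lewis lung carcinoma (LLC) cells. Members were taken by gene symbol alone: every probe set annotated to a single gene whose symbol starts with Nduf, Sdha, Sdhb, Sdhc, Sdhd, Uqcr, Cox4, Cox5, Cox6, Cox7, Cox8 or Atp5. This gave 185 probe sets for 94 genes, out of 18193 genes that single-gene probe sets measure. By known function, 73 of the 94 encode subunits of complexes I to V, 13 are assembly factors, 3 are muscle isoforms and 5 are other tissue isoforms. Of the 94 genes 92 lay above the intensity floor on both arrays. For the remaining 2, the complex I subunit gene Ndufb4 and the testis gene Cox7b2, the single-gene probe sets lay below it on both arrays. Ndufb4 is also read, above the floor, by sets it shares with near-identical copies, whose values are given at the end and enter no count. The floor is the 50th percentile of each array, 26.3 intensity units for the control and 24.3 for the TDAG8 array.

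Both groups were C57BL/6 mice of 6 to 8 weeks whose tail veins had received 500000 LLC cells in 200 µL, and lungs were taken on day 19. LLC is a carcinoma line of mouse lung that seeds tumours in the lung from the blood. In the control group the cells had been transfected with the vector, and in the other group they overexpressed TDAG8, the acid-sensing receptor encoded by Gpr65. The mice themselves carried no stated alteration, and the lung RNA of 10 mice was pooled for each group and read on 1 array. With 1 array per group there is no spread between replicates, so no test was made, no error can be given, and each difference describes these 2 pools. Gpr65 read 32.3 in the control and 73.9 in the TDAG8 array, but the sources used here do not say whether this probe set reads the transfected sequence. The species of the construct and the sex of the mice are likewise not stated there, and whole lung mixes tumour and host cells. The lung label fits the defining genes, since Sftpc of type 2 cells read 7476 and 6605 and Scgb1a1 of club cells 10112 and 8731 (control, then TDAG8).

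Complexes I to IV form the electron transport chain of the inner mitochondrial membrane. Complex I takes electrons from NADH and complex II from succinate, ubiquinone carries them to complex III, and cytochrome c carries them on to complex IV, which reduces oxygen. The proton gradient built on the way drives complex V, ATP synthase. Some complex IV subunits exist as a ubiquitous form and as forms of heart and skeletal muscle, lung or testis, and the muscle forms mark contractile tissue.

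Promoters of 4 members are shown because these genes carry differences described below. They are Ndufaf4 for the assembly factors, Uqcrc1 and Atp5g1 with the highest ratios among members of complexes III and V, and Cox7a1 for the muscle forms. Ndufaf6, which is not shown, was higher by as much as Ndufaf4, both 2.32-fold. Each holds 250 bases before and 50 after the annotated gene start, from RefSeq, build GRCm38.p6, written 5′ to 3′ along the gene. Capitals mark matches, on either strand, to the letters GCGCATGCGC of the factor NRF1, CCGGAAGT of the ETS factors such as GABP, or CACGTG, the E-box bound by Myc and related factors.
Ndufaf4, GRCm38.p6, chr4:24897833-24898132, plus strand: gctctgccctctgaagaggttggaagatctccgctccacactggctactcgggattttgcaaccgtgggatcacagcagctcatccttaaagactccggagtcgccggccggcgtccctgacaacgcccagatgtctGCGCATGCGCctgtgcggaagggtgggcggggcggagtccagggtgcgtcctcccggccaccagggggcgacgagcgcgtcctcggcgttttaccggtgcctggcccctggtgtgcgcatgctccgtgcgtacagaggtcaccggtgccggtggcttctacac
Uqcrc1, GRCm38.p6, chr9:108936398-108936697, plus strand: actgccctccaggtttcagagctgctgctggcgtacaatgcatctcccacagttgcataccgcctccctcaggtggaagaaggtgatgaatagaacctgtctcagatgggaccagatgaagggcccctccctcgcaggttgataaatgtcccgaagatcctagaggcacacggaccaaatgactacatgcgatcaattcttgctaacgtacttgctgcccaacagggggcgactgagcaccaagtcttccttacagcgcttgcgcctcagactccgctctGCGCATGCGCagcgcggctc
Atp5g1, GRCm38.p6, chr11:96075582-96075881, minus strand: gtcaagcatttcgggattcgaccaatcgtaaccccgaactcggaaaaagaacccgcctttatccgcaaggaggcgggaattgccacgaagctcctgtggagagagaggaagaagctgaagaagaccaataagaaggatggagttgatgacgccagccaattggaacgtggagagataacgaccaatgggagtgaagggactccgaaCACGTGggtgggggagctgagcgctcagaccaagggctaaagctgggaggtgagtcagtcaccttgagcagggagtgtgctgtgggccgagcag
Cox7a1, GRCm38.p6, chr7:30183921-30184220, plus strand: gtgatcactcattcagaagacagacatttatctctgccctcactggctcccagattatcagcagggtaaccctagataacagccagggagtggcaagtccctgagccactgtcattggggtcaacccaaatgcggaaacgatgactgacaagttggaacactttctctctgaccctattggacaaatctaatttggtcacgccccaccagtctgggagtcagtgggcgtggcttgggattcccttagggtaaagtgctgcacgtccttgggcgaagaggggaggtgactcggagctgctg
The NRF1 letters begin 113 bases upstream of the start in Ndufaf4 and 30 bases downstream of it in Uqcrc1. Of 83 promoters found for 78 members, 6 hold these letters, or 7.23%, against 0.971% of all 32851 promoters in the table. The 6 belong to Atp5g2, Atp5k, Cox6a1, Ndufaf4, Ndufaf5 and Uqcrc1, so 2 of 12 promoters of assembly factors hold them. The ETS letters stand in 5 of the 83, or 6.02%, against 3.89% of all promoters, and the E-box in 7, or 8.43%, against 7.15%. The E-box of Atp5g1 begins 44 bases upstream of the start, and the Cox7a1 window holds none of the 3. A match is a description of letters and not of binding, and a window without a match says only that these letters are not in it.

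The subunit genes taken by symbol were slightly higher as a set in lungs with TDAG8-overexpressing cells, and none differed by 1.5-fold or more. Of 72 measured subunits of complexes I to V, 58 had a log2 ratio of TDAG8 over control above 0, which is 80.6%, beside 49.9% of the 11949 genes measured. Ratios are centred so that the median over genes above the floor on both arrays is 0, and a log2 ratio of 0.58 is 1.5-fold. The median of the subunits was 0.14, or 1.10-fold, and the quartiles lay at 0.04 and 0.35. Over all genes measured the median was -0.00 and the quartiles lay at -0.33 and 0.35. Every subunit lay between -0.18 and 0.58. None was at least 1.5-fold higher and none at least 1.5-fold lower, beside 14.4% and 12.1% of all genes. The counts were also taken over brighter genes only, with each array's 80th percentile as the floor and a centring of their own. There 55 of 70 subunits lay above 0, with a median of 0.11, beside 51.1% of 6298 genes. Again 0 of 70 passed 1.5-fold in either direction, beside 11.4% higher and 9.32% lower among those genes (at 2-fold, 3.24% and 0.572%). Without centring 52 of 72 lay above 0, beside 44.97% of all genes measured, and after loess centring 54, beside 48.33%.

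**Figure D1:**
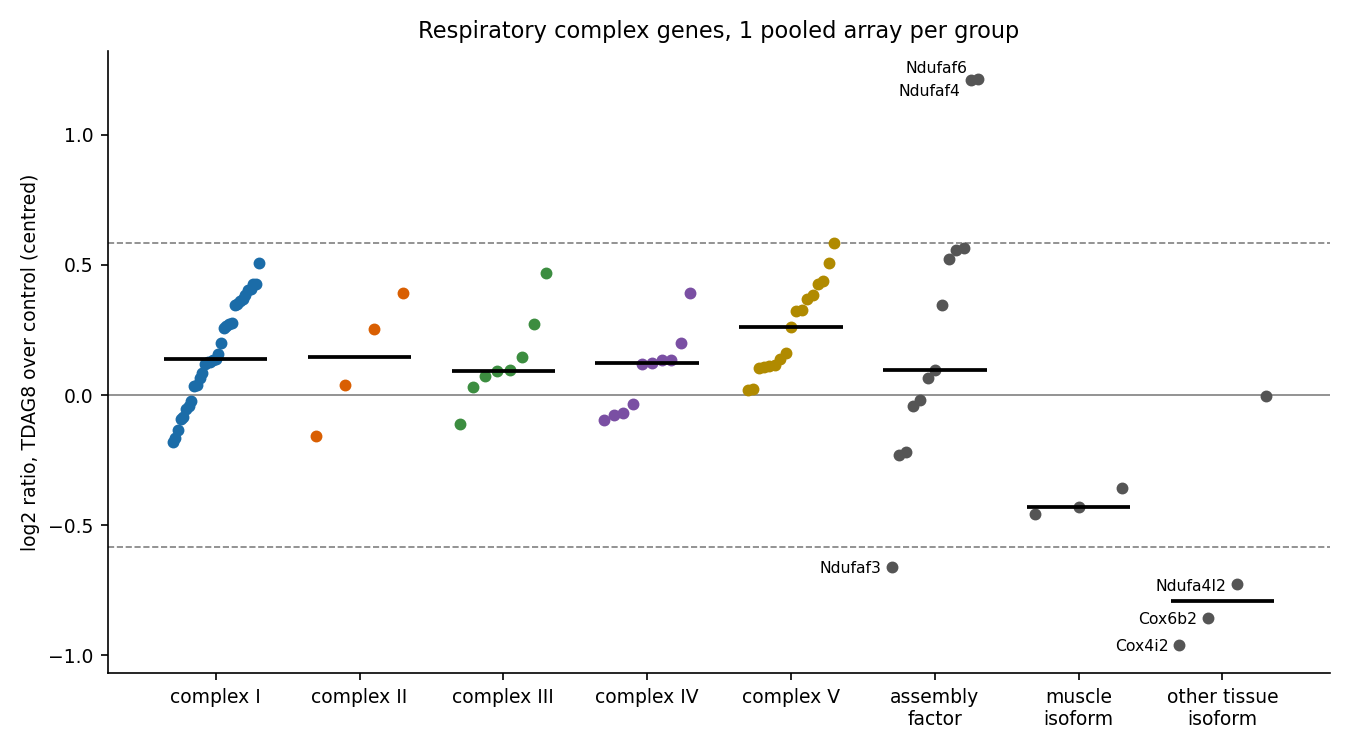
Log2 ratio of TDAG8 over control (vertical axis, centred) for each measured member, grouped by complex or class on the horizontal axis; each dot is 1 gene, black bars are group medians and dashed lines mark 1.5-fold. All subunits of complexes I to V lie between the dashed lines, all 17 of complex V lie above 0, and the muscle and other tissue isoforms lie at or below 0.

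Complex I, the NADH dehydrogenase, had 25 of 33 measured subunits above 0 and a median of 0.14. The 6 measured core subunits, which bind NADH, flavin and the iron-sulfur clusters that pass electrons to ubiquinone, were all above 0. Ndufv1, which binds NADH and the flavin, went from 539 in the control to 625 in the TDAG8 array, a log2 ratio of 0.27. The iron-sulfur subunit Ndufs1 went from 288 to 335, a ratio of 0.28. Ndufs3 was at 0.26, Ndufv2 at 0.20, and the iron-sulfur subunits Ndufs8 and Ndufs7 at 0.14 and 0.13. These 6 signs were the same under the other scalings and floors. Once sets with a sharing suffix were dropped, 5 of the genes were measured, all above 0. Such suffixes, for example _a_at, _s_at and _x_at, mark probes shared by transcripts of the same gene or by several genes.

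The accessory subunits of complex I, which surround that core, went both ways. Ndufa10, of the matrix-facing side, went from 464 to 634 and had the highest ratio, 0.51. Ndufa12, which takes its place late in assembly, went from 1240.3 to 1602 (0.43), Ndufb6 from 704 to 908 (0.43) and Ndufs5 from 512 to 653 (0.41). At the other end, Ndufb11, an X-linked membrane-arm subunit, went from 1814 to 1539 (-0.18). Ndufa13, also known as GRIM-19, went from 1405 to 1202 (-0.17), Ndufc2 from 1915 to 1676 (-0.13) and Ndufa6 from 648 to 583 (-0.09). The genes below 0 therefore lay closer to 0 than the highest ones. Of the 10 measured Ndufb genes 7 were above 0 (median 0.19), and of the 11 Ndufa genes 8 (median 0.16). Some values depend on the probe set, though the sets that differed most were dim. A second set of Ndufb8 gave -0.60, from 50.7 to 32.1, beside 0.35, from 768 to 942. The lowest set of Ndufa12 gave -0.09, from 49.6 to 44.6. That of Ndufs4 gave -0.50, from 55.3 to 37.6.

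Complex II, succinate dehydrogenase, also belongs to the citric acid cycle. Its catalytic subunit Sdha, which carries the flavin, went from 995 to 858, or -0.16 in log2. The iron-sulfur subunit Sdhb went from 982 to 1239 (0.39), so the 2 catalytic subunits lay on opposite sides of 0. Of the membrane anchors, Sdhc went from 515 to 589 (0.25) and Sdhd from 407 to 402 (0.04). A second, dimmer probe set of Sdhd, from 45.3 to 79.1, gave 0.86. The other sets of Sdha above the floor gave -0.12, from 554 to 489, and 0.26, from 45.2 to 51.9. The order within this complex is therefore not settled. The median of the 4 was 0.15.

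Complex III, the cytochrome bc1 complex, had 7 of 8 members above 0 with a median of 0.09. Uqcrc1, 1 of the 2 core proteins on the matrix side, went from 665 to 884 and stood above the others at 0.47. The other core protein, Uqcrc2, was at 0.09. The small subunit Uqcr10 went from 524 to 608 (0.27), but its other probe sets gave -0.39 and -0.20. Uqcr11 was at 0.15, the hinge protein Uqcrh at 0.09, Uqcrq at 0.07 and the Rieske iron-sulfur protein Uqcrfs1 at 0.03. The member below 0 was Uqcrb, which helps bind ubiquinone, from 4383 to 3897 (-0.11), with a second set at 0.28. Cyc1, the cytochrome c1 subunit that the symbol rule does not take, had a log2 ratio of 0.59.

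Complex IV, cytochrome c oxidase, had 6 of its 10 ubiquitous members above 0 and a median of 0.12. Cox5a went from 1501 to 1891 and was highest at 0.39, with its other probe sets at 0.33 and 0.57. Cox5b followed at 0.20, and Cox6a1, Cox7a2, Cox8a and Cox6b1 lay between 0.12 and 0.14. Cox4i1, the regulatory subunit that binds ATP, went from 2444 to 2195 (-0.10). Cox6c (-0.08), Ndufa4 (-0.07) and Cox7c (-0.04) lay just below 0 as well. Ndufa4 carries a complex I name but is now placed in complex IV. A second set of Cox6c gave 0.25, and Cox7c, from 41.0 to 38.4, was read close to the floor.

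Complex V had a median of 0.26, or 1.20-fold, and all 17 measured subunits above 0. This was the highest median of the 5 complexes, but not under every alternative. With the mean over probe sets complex II was highest (0.283) and complex V at 0.144. That mean counts dim sets, such as the second set of Sdhd, as much as bright ones. Without sets with a sharing suffix complex IV was highest (0.227) and complex V at 0.18. Atp5l (0.02) and Atp5j2 (0.02) lay below 0 without centring, after quantile normalization, after loess centring and over the brighter genes only. Averaging each gene's probe sets, dim and bright alike, put Atp5a1 and Atp5j2 below 0. Atp5c1 lay below 0 once sets with a sharing suffix were dropped. The set then left for Atp5c1 went from 32.8 to 21.2, below the floor on the TDAG8 array, so its ratio is a bound. The set that stood for Atp5c1 went from 1810.5 to 2245. Among the 3 genes of subunit c, which encode the same mature ring protein behind different import sequences, Atp5g1 went from 377 to 543. Its ratio of 0.58 was the highest of the subunits taken by symbol and just short of the 1.5-fold limit. Atp5g2 went from 1064 to 1373 (0.43) and Atp5g3 from 2887 to 2999 (0.11), so the ratio of Atp5g1 exceeded that of Atp5g3 by 0.47. In the peripheral stalk, which holds the head still, Atp5o went from 833 to 1138 (0.51), Atp5pb was at 0.33, Atp5j at 0.11 and Atp5h at 0.10. The 5 head and central stalk subunits, where ATP is made, had a median of 0.32. The catalytic beta subunit Atp5b went from 2410 to 2894 (0.32). Atp5d was at 0.38, Atp5c1 at 0.37 and Atp5e at 0.14. The alpha subunit Atp5a1 went from 1447 to 1555 (0.16). Its other probe sets gave -0.08, from 1269 to 1152.5, and -0.55, from 48.3 to 31.6, a dim set. Of the small membrane subunits Atp5md went from 367 to 478 (0.44), and Atp5mpl was at 0.11.

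**Figure D2:**
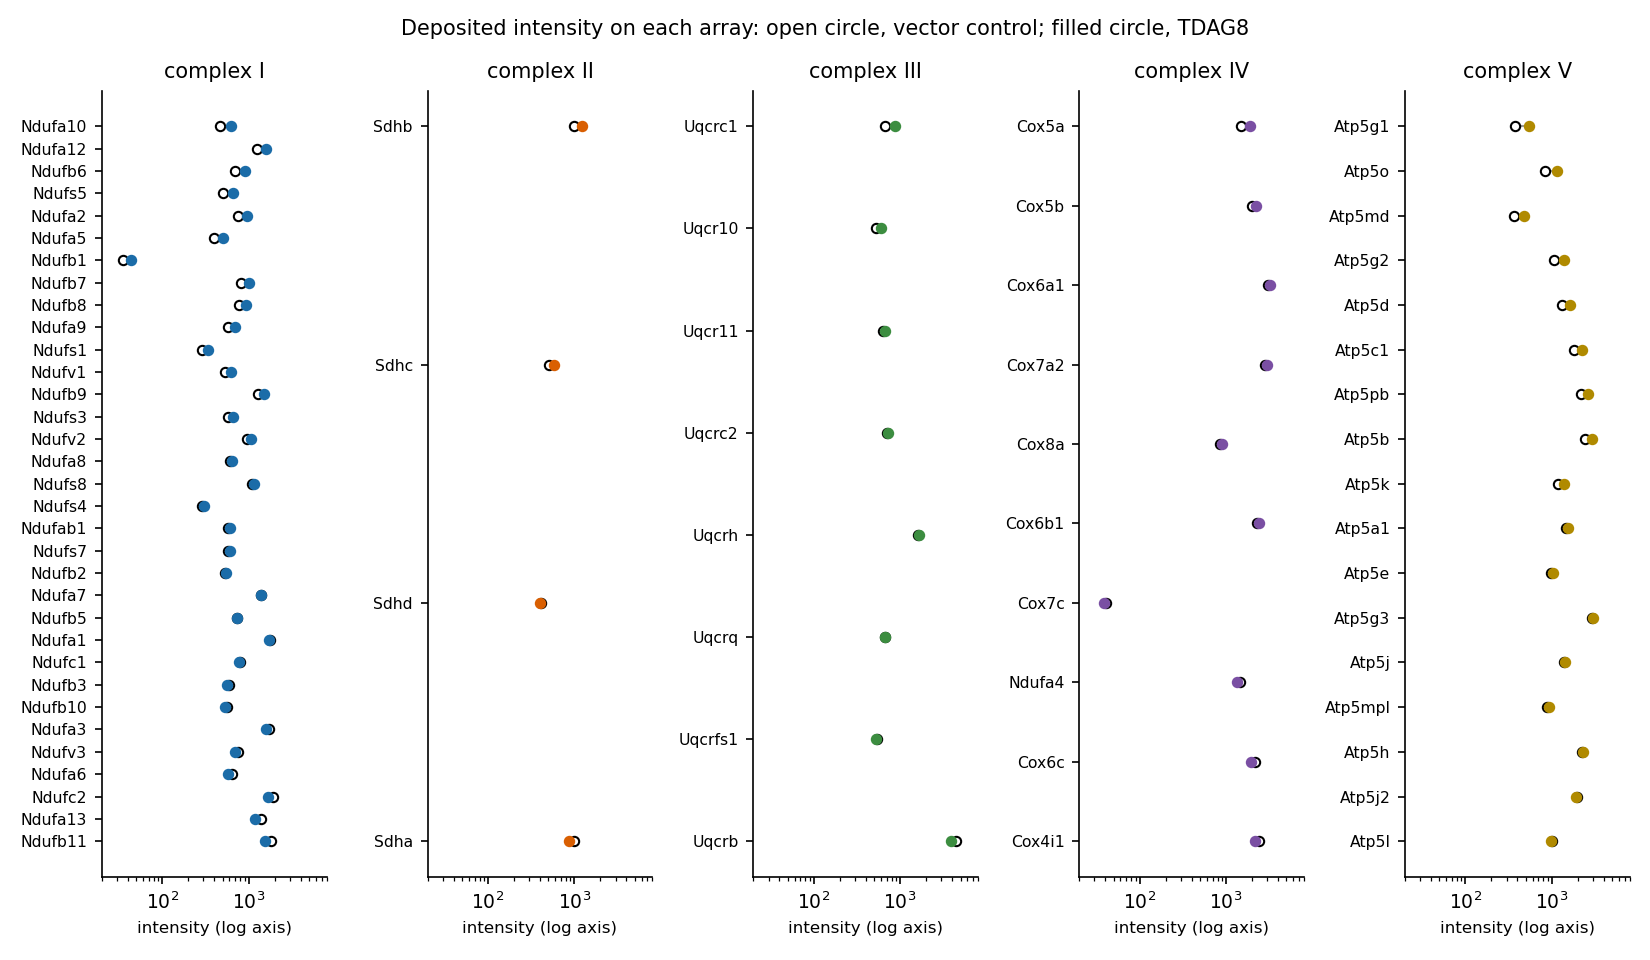
Deposited intensity (horizontal log axis) of each subunit gene on the control array (open circle) and the TDAG8 array (filled circle), 1 panel per complex, genes ordered by centred log2 ratio from lowest at the bottom. The shifts are small in every panel, with Atp5g1 going from 377 to 543 at the top of complex V and Ndufb11 from 1814 to 1539 at the bottom of complex I.

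Agreement between probe sets of a gene shows how far a value depends on the set chosen. The sets share the same pooled RNA and the same arrays, so error between pools or between arrays is not measured by it. Counting every subunit probe set that both arrays read above the floor, 104 of 134 were above 0, with a median of 0.15. Of 40 subunit genes with further sets above the floor, 34 were above 0 by the set that stood for the gene. By the median of their other sets 28 of these 34 had the same sign. Of the 6 below 0 only 3 did. For 9 members the sets lay over 0.5 apart: Atp5a1, Atp5j2, Cox6a2, Ndufa12, Ndufaf4, Ndufb8, Ndufs4, Sdhd and Uqcr10.

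The assembly factors, which build the complexes without being part of them, had a wider range than the subunits, from -0.66 to 1.21. They were also dimmer: at the 80th percentile floor 6 of 13 stayed measured, 4 of them above 0, beside 70 of 72 subunits. The ranges were not compared at equal intensity. Of 13 factors 8 were above 0 and the median was 0.09. At 1.5-fold, 2 were higher and 1 lower, or 15.4% and 7.69%, near the 14.4% and 12.1% of all genes. The same 2 were at least 2-fold higher, beside 5.41% of all genes, and none was at least 2-fold lower, beside 1.19%. Ndufaf6, which acts early in complex I assembly, went from 51.6 to 115, 2.32-fold higher. Ndufaf4, an early complex I factor, went from 137 to 304, also 2.32-fold, but its second probe set gave 0.48. Neither held the 2-fold call under every alternative: Ndufaf6 fell short with the 65th percentile floor and, at its lowest, with a log offset in place of the floor (0.91), and Ndufaf4 with the mean over its probe sets (0.85). Both genes lie on chromosome 4. Ndufaf5, an enzyme that modifies a core subunit, went from 43.5 to 61.5 (0.56) and Ndufaf2, a factor of late assembly, from 72.0 to 87.9 (0.35). Ndufaf8 was at 0.07, Ndufaf1 at -0.02 and the methyltransferase Ndufaf7 at -0.22. Ndufaf3, a partner of Ndufaf4 in the same early intermediate, went from 221 to 134 and was 1.58-fold lower. The 2 partner factors thus differed in direction, and Ndufaf3 kept its sign under the alternatives, between -0.74 and -0.50, but lost the 1.5-fold call with the log offset and with the 80th percentile floor.

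Of the complex II factors, Sdhaf3, needed to mature the iron-sulfur subunit, went from 64.9 to 92.3 (0.57). Sdhaf2, which attaches the flavin to Sdha, went from 183 to 253 (0.52), with a second set at 0.47. Sdhaf4 was at 0.09 and Sdhaf1 at -0.04, so the 4 factors lay on both sides of 0. Cox7a2l, classed here as a factor of supercomplex assembly, went from 1055 to 863 (-0.23), with its other probe sets at -0.25 and 0.01.

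The tissue isoforms lay below their ubiquitous partners in each pair that could be read. The 3 muscle forms of complex IV were all below 0, under every alternative that measured them. Cox7a1 went from 82.2 to 57.5 (-0.46), Cox8b from 78.5 to 56.0 (-0.43) and Cox6a2 from 248 to 186 (-0.36), with a second Cox6a2 set at -1.21. None reached 1.5-fold by the set that stood for the gene. Against its ubiquitous partner the log2 ratio was lower by 0.59 for Cox7a1 beside Cox7a2, by 0.55 for Cox8b beside Cox8a and by 0.49 for Cox6a2 beside Cox6a1. All 3 genes lie on chromosome 7. Heart muscle markers were lower as well. Of 12 cardiac genes 11 were below 0, with a median of -0.68, and their summed intensity went from 5837 to 3573. Tnni3, cardiac troponin I, went from 326 to 164, and Nppa, the atrial natriuretic peptide, was at 0.01. Pulmonary veins of mice carry a sleeve of heart muscle, and the part of such cells in the isoform values was not tested. Of the brown fat markers, which also go with Cox7a1 and Cox8b, Ucp1, Dio2 and Elovl3 lay below the floor on both arrays. Ppara was above it on the control array alone and Cidea on the TDAG8 array alone, with a median of -0.19. Of 8 skeletal muscle markers 5 lay below the floor on both arrays and 3 had a median of 0.06. Of these only Ckm (0.06) was above it on both. Mylpf and Acta1 were below it on the control array, so their ratios are bounds. Acta1 went from 25.5 to 48.3 (0.94). The 3 white fat markers had a median of -0.29. In RNA of whole tissue, fewer cells of a type and less RNA per cell cannot be told apart.

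The lung and hypoxia forms were lower by more. Cox4i2, the lung form of subunit 4, went from 123 to 60.9 and was 1.95-fold lower, while Cox4i1 was at -0.10. Ndufa4l2, a paralogue of Ndufa4 that low oxygen induces in many cells, went from 155 to 89.9, 1.66-fold lower. Both genes are strongly expressed in lung pericytes, the mural cells of capillaries. All 8 pericyte and smooth muscle markers were below 0, with a median of -0.55 and a summed intensity of 3270 in the control and 2286 in the TDAG8 array. Among them the pericyte genes Kcnj8 went from 68.3 to 40.1, Higd1b from 150 to 92.1 and Rgs5 from 83.6 to 54.1. All 8 hypoxia markers were above 0, with a median of 1.06 and summed intensities of 2519 and 5068, so Ndufa4l2 lay opposite to them. The part of pericytes or of oxygen in these values was not tested. Against the 80th percentile of each array, 151 and 152, the TDAG8 value of Ndufa4l2 lay below the floor and its control value just above it, and the ratio became 0.0088. The testis form Cox6b2 went from 172 to 91.1, 1.81-fold lower, while Cox6b1 was at 0.12. Its ratio ranged from -0.94 to -0.14 over the alternatives, and at the 80th percentile floor it lost the 1.5-fold call. The testis form Cox8c was at -0.00, from 59.1 to 56.6, and lay above 0 under some alternatives, such as the 30th percentile floor. In all, 3 of the 4 measured tissue forms outside muscle were at least 1.5-fold lower, beside 12.1% of all genes.

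**Figure D3:**
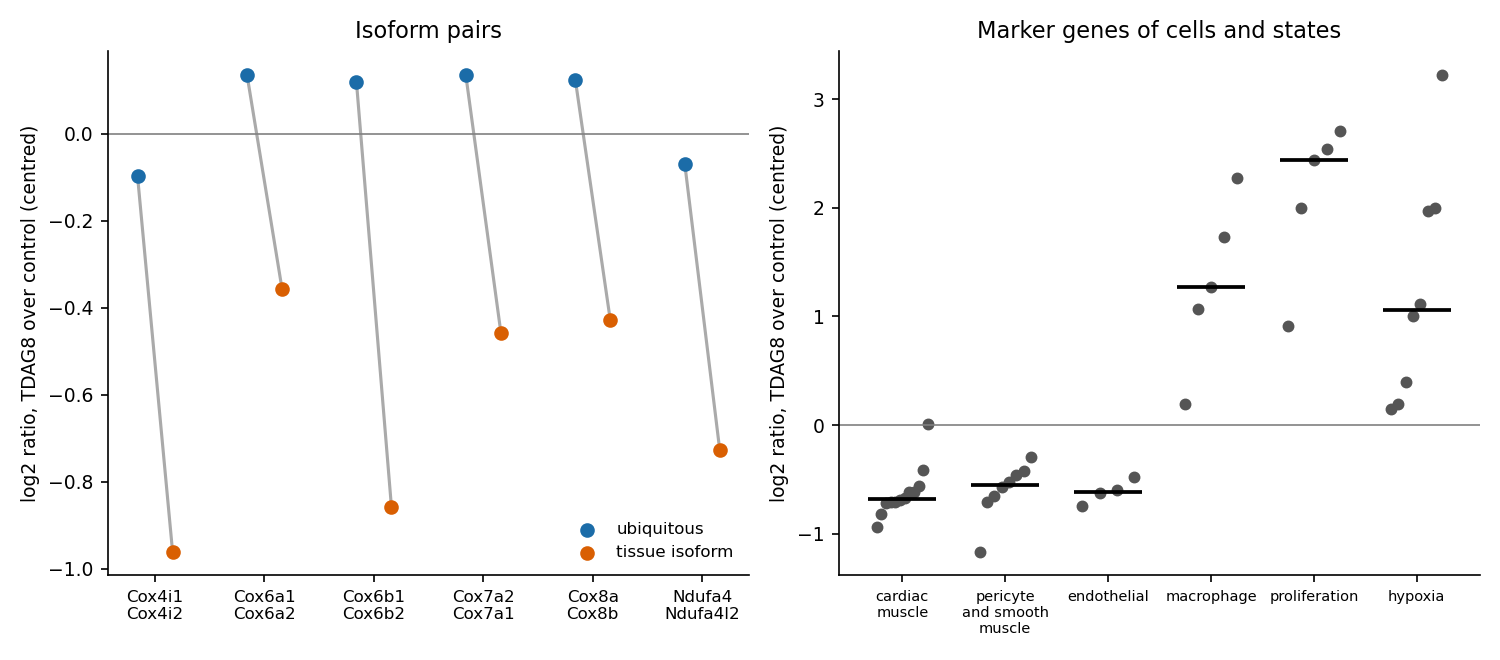
Left, centred log2 ratio (vertical axis) of 6 pairs of a ubiquitous subunit (blue) and its tissue isoform (orange); right, the same measure for marker genes of cells and states, each dot 1 gene and each bar the list median. The orange dot lies below the blue one in each pair, and the cardiac and pericyte lists have medians of -0.68 and -0.55 while proliferation and hypoxia lists have 2.44 and 1.06.

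Markers of other cells and states also differed between the arrays. All 5 measured proliferation markers were above 0, with a median of 2.44 and summed intensities of 1723 and 4783. All 5 macrophage markers were above 0 as well (median 1.28). The 4 endothelial markers had a median of -0.61, the 4 alveolar type 1 markers -0.48, the 4 type 2 markers -0.43, the 3 club cell markers -0.34 and the 4 ciliated cell markers -0.90. The part of cell composition in the subunit values was not tested.

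Other mitochondrial genes were read beside the complexes. The list with the highest median was that of protein import and inner membrane proteases, 0.42, with 26 of 30 genes above 0 and 11 at least 1.5-fold higher, or 36.7%, beside 14.4% of all genes. Timm8a1, an import chaperone of the intermembrane space, went from 174 to 409, and Hspd1, the chaperonin Hsp60, from 1169 to 2424. Lonp1, the matrix protease that degrades excess subunits, went from 122 to 195, 1.67-fold higher. Timm44 (-0.04) and Clpx (-0.03) were lowest, and the import receptor Tomm20 was at 0.23. Genes that copy, transcribe and translate the mitochondrial genome had 17 of 21 above 0 and a median of 0.17. The elongation factor Tsfm went from 59.1 to 136 (1.27), the helicase Twnk was at 0.69, Ssbp1 at 0.47, Mterf2 and the polymerase Polg at -0.17. The 13 genes encoded by mitochondrial DNA were not analysed here.

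Assembly factors whose names fall outside the symbol rule had 29 of 39 above 0 and a median of 0.22. At least 1.5-fold higher were 7, or 17.95%, near the 14.4% of all genes, and 0 were at least 1.5-fold lower, beside 12.1%. Coa7, of complex IV, was at 0.87 and Uqcc2, of complex III, went from 515 to 869 (0.81). Coa3 was at 0.07, Cox20 at -0.33 and Dmac2 at -0.47. Among carriers of electrons and ubiquinone enzymes, 12 of 20 were above 0 with a median of 0.04. Cycs, cytochrome c, went from 1534 to 2613, 1.77-fold higher, and Gpd2, which feeds electrons from glycerol phosphate, was at 0.65. Coq8a and Coq8b, kinases of ubiquinone synthesis, were 1.66-fold and 1.56-fold lower. The citric acid cycle and pyruvate entry list had 16 of 24 above 0 and a median of 0.12. Among its enzymes Mdh2 (0.51) and Dld (0.71) were higher, while Pdha1 (-0.28), Idh2 (-0.27) and Ogdh (-0.27) were lower. The kinases that block pyruvate entry went both ways. Pdk1, the form induced by low oxygen, went from 128 to 266, and Pdk3 was at 0.62. Pdk2 went from 106 to 56.4 and Pdk4 from 135 to 88.1.

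The exchange carriers and porins had 7 of 11 above 0 and a median of 0.10. The carrier Slc25a24 was 1.81-fold higher, Vdac3 was at 0.43 and the phosphate carrier Slc25a3 at 0.29, with Slc25a23 at -0.46. Ckmt2, the creatine kinase of heart and skeletal muscle mitochondria, went from 106 to 68.0 (-0.58), near the muscle isoforms. Regulators of mitochondrial biogenesis spread widest, with a median of 0.06 and 10 of 18 above 0. Myc went from 162 to 998.5 and Hif1a from 926 to 2138. The coactivator Ppargc1b was 1.82-fold lower, and Ppargc1a from 38.6 to below the floor, at least 1.53-fold lower. Pprc1, a further member of that family, went from 115 to 244 (1.15), so the 3 coactivators differed in direction. The transcription factor gene Nrf1 was at -0.17 and Epas1 at -0.34.

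**Figure D4:**
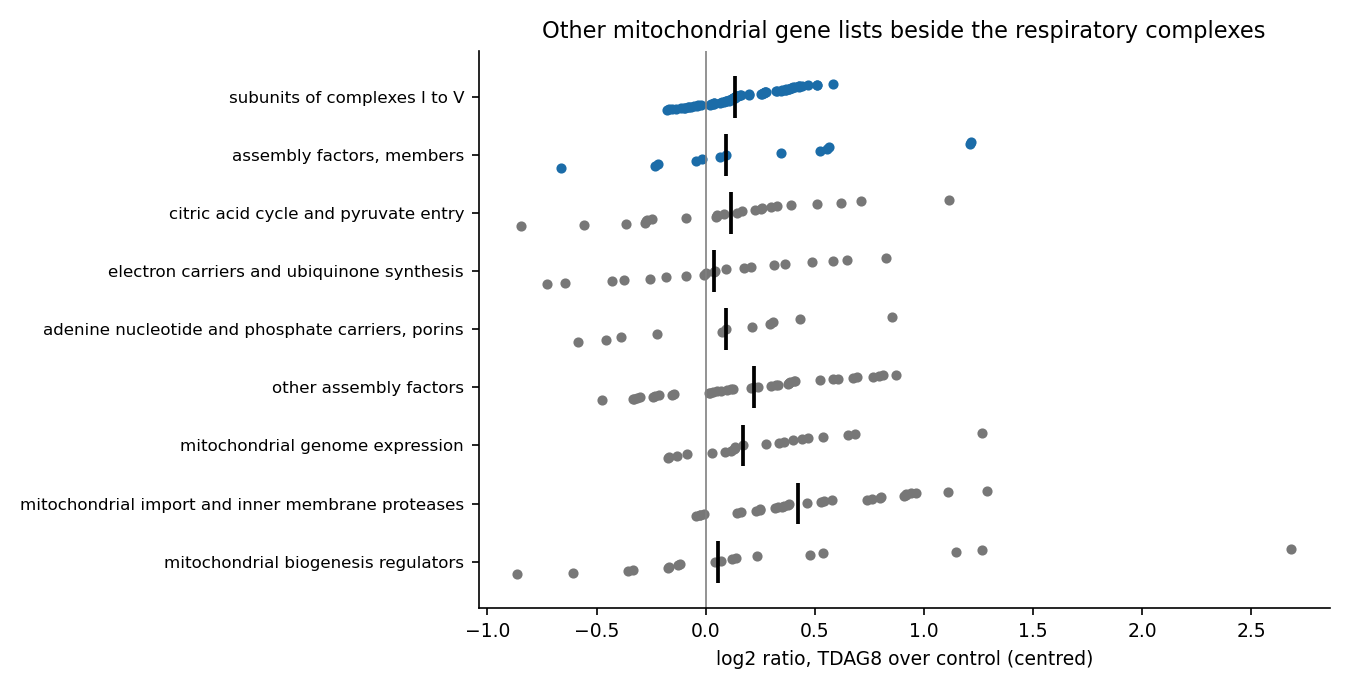
Centred log2 ratio of TDAG8 over control (horizontal axis) for the members (blue) and for other mitochondrial gene lists (grey), each dot 1 gene and each bar the list median. The subunits span -0.18 to 0.58 around a median of 0.14, while the import list has a median of 0.42 and the biogenesis regulators reach 2.68 with Myc.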

How the data were processed

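Total RNA of whole lungs was labelled by the Affymetrix procedure from 2 µg per pool, per the labels' protocols; it primes from the poly(A) tail. The values deposited by the authors are probe set intensity values on a linear scale, both columns with a trimmed mean of 100 without the outer 2% at each end. The sources used here do not name the software, and 0 columns were left unmapped. Control probe sets were set aside, which left 45037, of which 34945 were annotated to 1 gene, 932 to several and 9160 to none. Current symbols and chromosomes came from RefSeq, GRCm38.p6, for 18031 of 18193 genes.

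Each gene was read by its probe set of highest mean log2 intensity. Values below the 50th percentile of their array were raised to it, so that their ratios are bounds. This left 11949 genes, after dropping those below it on both arrays. Log2 ratios of TDAG8 over control were centred by -0.06, the median over 11044 genes above the floor on both arrays. Counts use 1.5-fold and 2-fold. No test was possible with 1 array per group; precision is limited by that number.

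The members, the lists and the alternatives were chosen with earlier results of these data known. Named were all complex II subunits, the brightest and the 4 highest and 4 lowest of each other complex, members past 1.5-fold, isoforms with their partners, all assembly factors, members whose sets differ by over 0.5, and in each related list the brightest and the 2 at each end. Other members were named by their place in a complex. Cyc1, Lonp1, Pprc1, Nrf1, Pdha1, Idh2, Ogdh, Pdk3 and the single marker genes were chosen after their values were seen. The procedure was tested on simulated data. Python 3.11.15, pandas 2.3.3, numpy 2.4.6 and matplotlib 3.10.9 were used.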

Additional observations from a re-analysis of the deposited data

How the results depend on the processing

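Each value was recomputed under 9 alternatives, and a median was counted as moved where it differed by over 0.1 on the log2 scale, since there is no replicate spread. No paired analysis was possible because each group had 1 array. Leaving out a sample was not possible either. A count was called moved where the larger value was over 1.5 times the smaller. Of 170 recomputed medians and counts for the complexes and the lists 158 did not move by these limits. The limit of 0.1 is near the size of most medians, so an unmoved median can still change sign. That of electron carriers and ubiquinone enzymes went from 0.04 to -0.02 without centring and -0.03 after loess centring. The median of all subunits ranged from 0.0769 to 0.1698, that of complex I from 0.08 to 0.1682 and that of complex III from 0.0355 to 0.1121, and no median of a complex changed sign. The number of subunits at least 1.5-fold lower was 0 under each alternative. The number at least 1.5-fold higher became 1 at the 30th percentile floor and with the mean over probe sets, in both cases Atp5g1. With the mean over probe sets the medians of complexes II and V became 0.283 and 0.144. Dropping sets with a sharing suffix left 53 subunits. The medians of complex IV and of the member assembly factors then became 0.227 and 0.294. That of the import list became 0.526 and that of the biogenesis regulators -0.10. At the 80th percentile floor the medians of the exchange carriers, the biogenesis regulators and the reference genes became 0.267, 0.264 and 0.201, and at the 65th percentile that of mitochondrial genome expression became 0.286; fewer genes are measured at these floors. Ndufa4l2 turned to 0.0088 at the 80th percentile floor, which lay at 152 on the TDAG8 array, above its value there. Of 72 measured subunits 54 kept the sign of their ratio under every alternative that measured them, 45 above 0 and 9 below.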

Other observations

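Probe sets annotated to a complex I subunit together with another gene entered no count above, because their signals cannot be told apart. Of 10 such probe sets 6 lay above the floor on both arrays, each shared with a near-identical copy or a pseudogene. Ndufs5 and Ndufab1 were counted through single-gene sets. The set shared by Ndufa11 and Ndufa11b went from 542.5 in the control to 536 in the TDAG8 array, a log2 ratio of 0.04. The set shared by Ndufs6 and Ndufs6b went from 659 to 670.1 (0.08). The 2 sets shared by Ndufb4, Ndufb4b and Ndufb4c gave -0.05 and 0.14. The set of Ndufab1 and its pseudogene gave 0.08. The set of Ndufs5 and its pseudogene went from 439 to 582, a ratio of 0.47 beside 0.41 for the set of Ndufs5 alone. All 6 lay inside the range of the single-gene subunits. Of the reference genes, 4 of 6 measured were above 0 with a median of 0.36, among them Gusb at 0.56 and Hprt at 0.43, while Actb was at -0.09 and B2m at -0.01.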
